A study of Mus musculus with 6 samples.

Results

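The collagen genes of the array, 42 of 18194 measured genes, were compared between EGFP-positive cells of Pax2 null and Pax2 heterozygous mouse embryos at E11.5. Members were all genes whose platform symbol is Col, a type number, the letter a and a chain number, on probe sets with exactly 1 symbol, and 82 of 45101 probe sets belonged to them. They were grouped as 11 fibrillar, 9 network-forming, 9 fibril-associated (FACIT) and 13 other collagens. Cells were sorted by fluorescence from the dissected intermediate mesoderm region, and 3 arrays of each genotype were made from 10 ng of total RNA per sample. By their titles heterozygotes carry EGFP on 1 allele and nulls on both, so every sample carries EGFP and at least 1 altered Pax2 allele, and there is no wild-type group. The sources used here do not give the EGFP insertion, the strain, the litters or any pooling of embryos. The p-values therefore cover the spread among these 6 samples, part of which may be technical.

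Collagens are extracellular matrix proteins of 3 chains wound into a triple helix, with glycine recurring at regular steps along each chain. Fibrillar types I, III and V build the fibrils of connective tissue, types II and XI those of cartilage, and FACIT collagens sit on the surface of fibrils. Type IV forms the sheet-like network of basement membranes under epithelia, such as the ureteric bud, and type VI forms beaded filaments between cells and fibrils. In the developing kidney, interstitial collagens are mainly products of stroma, whereas basement membrane chains come from epithelium, mesenchyme and vessels.

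Col1a2 and Col12a1 rose in null cells. Without passing the test, Col1a1, Col3a1, Col5a1, Col5a2, Col6a1, Col6a2 and Col6a3 lay higher in every null array than in any heterozygote. So did Col4a6, Col6a4, Col8a2, Col9a1, Col16a1 and Col25a1, and Col4a1 lay lower in every null array. For Col6a4 the gap was smaller than the rounding, with null 1 and heterozygote 2 both at 4.448. Of 42 members, 2 rose and 0 fell (limma, adjusted p under 0.05 over all genes), against 0.808% of all genes that rose and 0.583% that fell. The 2 were Col1a2 and Col12a1. At an unadjusted p under 0.05 in limma, 13 members were higher and 0 lower, where 5.07% of all genes were higher and 4.65% lower. Null arrays all lay above heterozygote arrays for 15 members, where 6.49% of all genes did so, and all below for 1, where 7.16% did. The median change of the family was 0.28 on the log2 scale (null minus heterozygote, as are all changes given here), against -0.02 for all genes, and 32 members had a positive change, as did 46.3% of all genes. Medians were 0.47 for fibrillar, -0.02 for network, 0.25 for FACIT and 0.40 for other collagens.

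The labels give no batch, but the hybridization controls, bacterial transcripts added to each sample, matched the 6 arrays into 3 pairs of 1 array per genotype. Heterozygote 1 and null 3 formed pair 1, heterozygote 2 and null 1 pair 2, and heterozygote 3 and null 2 pair 3. With this pair as a block, 13 members rose and 0 fell (limma, adjusted p under 0.05), where 4.53% of all genes were called, 2.65% rising and 1.88% falling. At an unadjusted p under 0.05 in this fit, 20 members were higher and 1 lower, where 9.45% of all genes were higher and 10.2% lower. Of the 13, 5 were fibrillar, 2 network, 2 FACIT and 4 other collagens. The pairing was found in these data, and the fit with it leaves few residual degrees of freedom per gene before moderation. Among the 13, heterozygote 1 was the highest heterozygote for 11 and null 3 the highest null for 10, both being arrays of pair 1, while heterozygote 2 and null 2 were each the lowest of their genotype for 8. The block fit that picked the 13 favours genes whose arrays shift together within pairs, and this order was not counted for other genes. In all 3 pairs null exceeded heterozygote for 21 of the 42 members, against 19% of all genes, and fell below it for 6, against 23.4%.

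**Figure D1:**
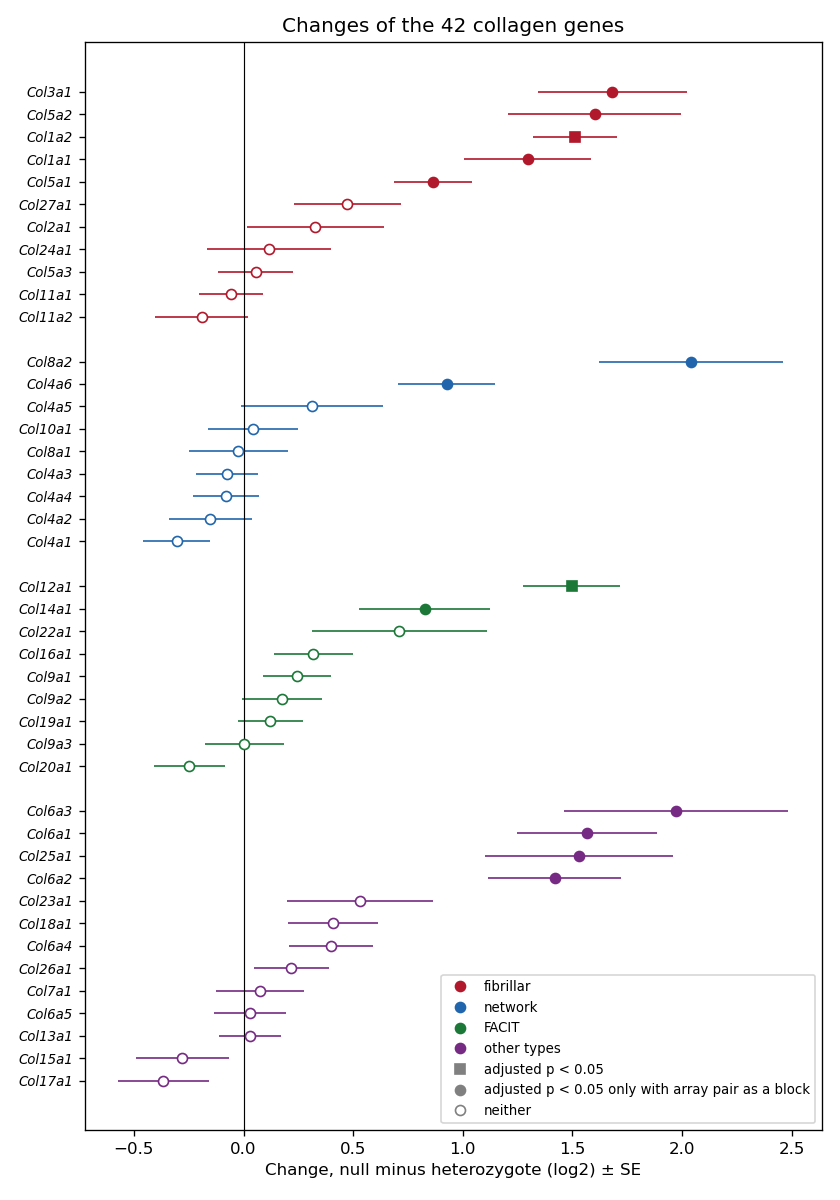
Change of each collagen gene, null minus heterozygote, on the log2 scale (x axis, bars are standard errors from limma), grouped by class and sorted within it. Filled squares mark the 2 genes with adjusted p under 0.05, filled circles the 11 that reach it only with the array pair as a block, and open circles the other 29; Col3a1, Col5a2, Col1a2, Col1a1 and Col5a1 lead the fibrillar class, Col5a3 and Col6a5 of types V and VI lie near 0, and Col4a1 and Col4a2 lie left of 0.

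RefSeq promoter windows were matched to 33 of the 42 members (build GRCm38.p6). The upstream parts are shown for Col1a2, called without the block, Col3a1 and Col8a2, which have large changes, and the neighbours Col4a6 and Col4a5, which start in opposite directions on the X chromosome with 1274 bases between their RefSeq spans. Each runs 5′ to 3′ on the gene's strand and ends before the gene's RefSeq span. Capitals mark matches to 3 short motifs on either strand. The CCAAT box was searched as CCAAT. For the TATA box the letters searched were TATAAA. For the GC box, which many promoters hold, they were GGGCGG. The windows are chr6:4505368-4505617 (plus strand), chr1:45311288-45311537 (plus), chr4:126286544-126286793 (plus), chrX:141474096-141474326 (minus) and chrX:141475169-141475369 (plus).
Col1a2: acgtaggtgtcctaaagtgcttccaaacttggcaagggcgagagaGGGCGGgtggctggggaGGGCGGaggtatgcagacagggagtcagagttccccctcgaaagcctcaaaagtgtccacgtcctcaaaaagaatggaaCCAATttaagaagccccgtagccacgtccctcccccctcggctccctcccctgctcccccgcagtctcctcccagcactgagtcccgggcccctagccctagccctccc
Col3a1: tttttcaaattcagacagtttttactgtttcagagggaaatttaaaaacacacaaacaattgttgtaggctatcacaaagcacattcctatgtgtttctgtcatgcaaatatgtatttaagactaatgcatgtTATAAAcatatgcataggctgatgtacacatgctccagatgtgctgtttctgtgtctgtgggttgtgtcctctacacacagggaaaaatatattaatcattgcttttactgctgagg
Col8a2: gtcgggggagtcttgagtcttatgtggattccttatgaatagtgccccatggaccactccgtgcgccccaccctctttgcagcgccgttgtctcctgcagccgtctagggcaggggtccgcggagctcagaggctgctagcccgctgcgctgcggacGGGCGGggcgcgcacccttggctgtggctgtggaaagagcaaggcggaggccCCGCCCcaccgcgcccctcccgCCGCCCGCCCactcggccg
Col4a6: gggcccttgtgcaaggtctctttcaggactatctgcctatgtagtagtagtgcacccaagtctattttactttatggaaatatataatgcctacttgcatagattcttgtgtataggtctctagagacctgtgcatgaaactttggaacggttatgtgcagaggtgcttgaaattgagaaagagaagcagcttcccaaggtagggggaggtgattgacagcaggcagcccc
Col4a5: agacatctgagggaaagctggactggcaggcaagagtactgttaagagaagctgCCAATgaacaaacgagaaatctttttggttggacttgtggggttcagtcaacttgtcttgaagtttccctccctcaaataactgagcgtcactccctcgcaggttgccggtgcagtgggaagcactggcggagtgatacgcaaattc

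Col1a2 and Col8a2 had GC-rich windows, at 62.0% and 70.0% G or C, and Col3a1 had 35.2%. The GC box motif was found 2 times in the Col1a2 window and 4 times in that of Col8a2, with overlapping matches counted singly, and in none of the other 3 windows. The Col1a2 and Col4a5 windows each had 1 CCAAT box motif, and the Col3a1 window 1 TATA box motif. Col4a6 had no match to any of the 3 motifs. Among 36 collagen windows of 250 bases, 58.3% held the GC box motif, against 32.7% of all 32851 windows, 36.1% the CCAAT box (33.8% of all) and 13.9% the TATA box (12.4%). The 3 genes with large changes thus had windows of different composition. Matches are descriptions of the letters only.

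Among fibrillar collagens, both chains of type I, the main fibril protein of connective tissue, were higher in null cells. Col1a2, its α2 chain, had log2 values of 10.33, 9.97 and 10.59 in heterozygotes 1, 2 and 3 and 11.93, 11.74 and 11.76 in nulls 1, 2 and 3. The change was 1.51 ± 0.19 (SE), a 2.85-fold rise (limma, adjusted p = 0.0124; 0.0134 with the pair block), and the groups did not overlap. The call was lost without null 1 (limma, adjusted p = 0.0601). Col1a1, the α1 chain, had values of 10.88, 9.90 and 10.01 in heterozygotes and 11.62, 11.21 and 11.84 in nulls, again without overlap, and heterozygote 1 was the highest of its group. Its change of 1.30 ± 0.29 did not pass (limma, adjusted p = 0.0990) except with the block (0.0186). The other Col1a1 probe set had a change of 1.46 ± 0.21 and was called in the test of single probe sets (limma, adjusted p = 0.0295).

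Type III collagen, which forms fibrils with type I in stretchable tissue, and type V, which starts fibril assembly, were also higher. Col3a1 had values of 10.34, 8.91 and 9.95 in heterozygotes and 11.37, 11.27 and 11.60 in nulls. The heterozygotes spread over more than a log2 unit, with heterozygote 2 lowest, and the nulls lay close together. Its change was 1.68 ± 0.34 (limma, adjusted p = 0.0679 and 0.0293 with the block). The other Col3a1 probe set had a change of 2.39 ± 0.44 and was not called in the test of single probe sets (limma, adjusted p = 0.0744). Col5a2, the next collagen gene along chromosome 1 with 24624 bases between the 2, had values of 8.003, 6.39 and 7.48 in heterozygotes and 8.90, 8.52 and 9.26 in nulls, a change of 1.60 ± 0.40 (limma, adjusted p = 0.130; 0.0480 with the block). Here too heterozygote 2 was the lowest array and the groups did not overlap. Col5a1 had values of 9.93, 10.07 and 10.35 in heterozygotes and 11.15, 10.99 and 10.79 in nulls and a smaller change with a smaller spread, 0.87 ± 0.18 (limma, adjusted p = 0.0732; 0.0250 with the block). The third type V chain gene, Col5a3, was dim in all arrays, at 4.27, 4.13 and 3.89 in heterozygotes and 4.27, 4.23 and 3.96 in nulls, with a change of 0.06 ± 0.17.

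The cartilage-type fibrillar collagens did not pass in either fit. Col2a1, the fibril collagen of cartilage and notochord, had values of 10.96, 11.71 and 12.05 in heterozygotes and 12.06, 12.20 and 11.44 in nulls, and the groups overlapped. Its change was 0.33 ± 0.31 (95% interval -0.40 to 1.05). Its partners of type XI gave -0.06 ± 0.15 for Col11a1 (95% interval -0.39 to 0.28) and -0.19 ± 0.21 for Col11a2. Col27a1, also made in cartilage, had 0.47 ± 0.24 (limma, adjusted p = 0.648; 0.0949 with the block) and Col24a1 0.12 ± 0.28. In all, 5 of 11 fibrillar genes passed with the block, all of them in types I, III and V. Whether types I, III and V differ from types II and XI was not tested.

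**Figure D2:**
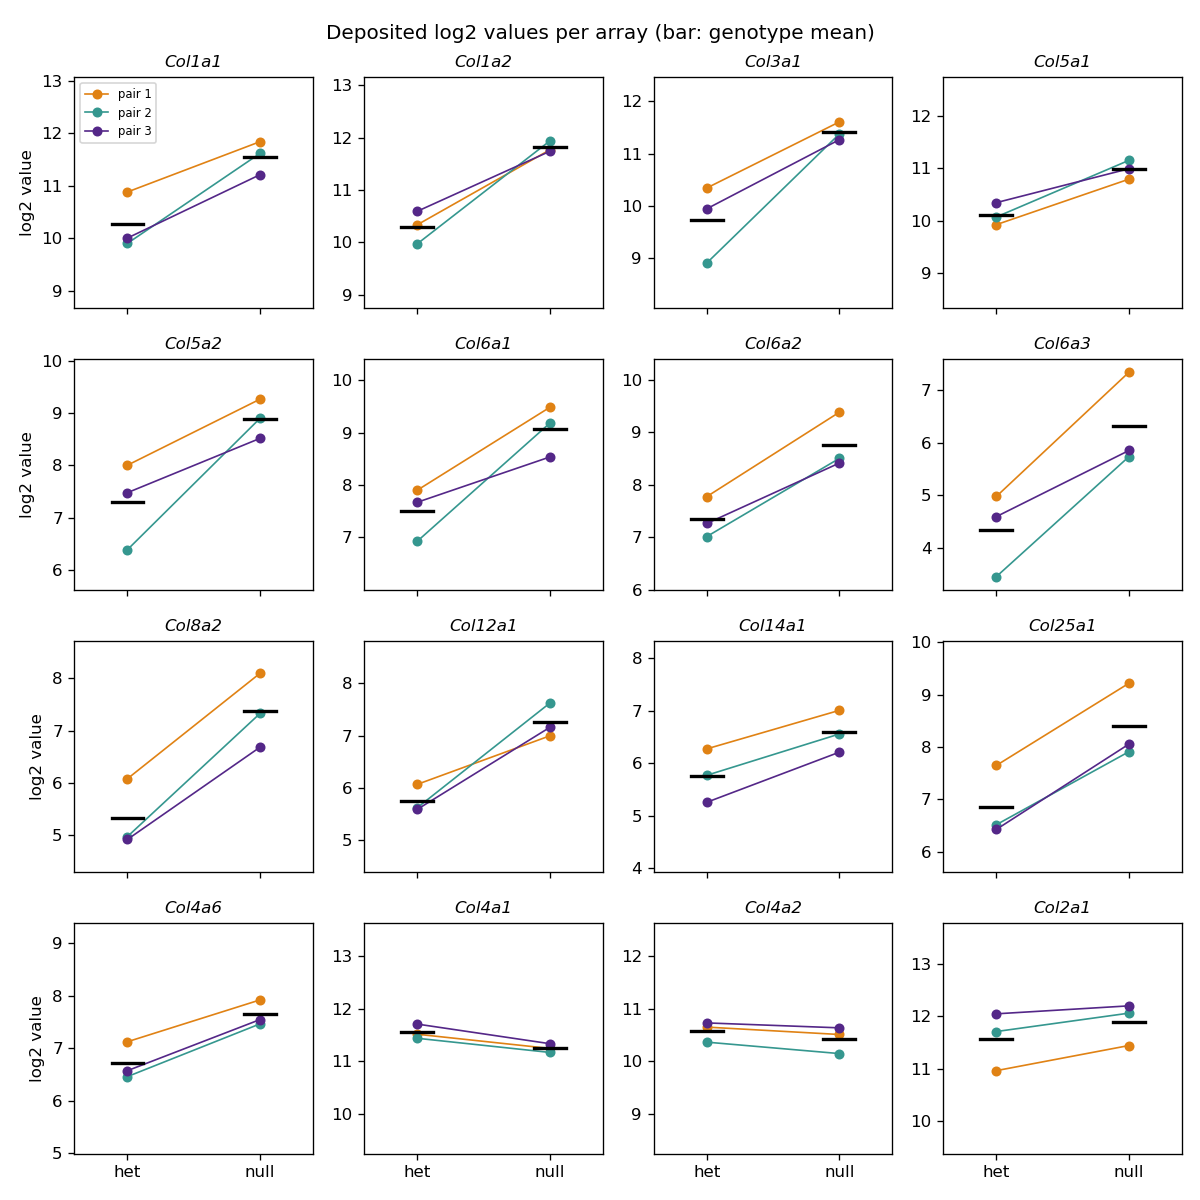
Deposited log2 value of each array (y axis, 4.4 log2 units in every panel) for the 13 collagen genes that pass with the array pair as a block and for Col4a1, Col4a2 and Col2a1. Points are arrays, lines join the arrays of a pair and black bars are genotype means. Every line rises in the first 13 panels, whose genes were picked by the fit with the block. The 3 lines of Col4a1 and of Col4a2 fall slightly.

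Type IV, the basement membrane collagen, split between its chains. Col4a1, which with Col4a2 makes the common α1-α1-α2 network, had values of 11.51, 11.44 and 11.71 in heterozygotes and 11.17, 11.33 and 11.24 in nulls. Null arrays were all lower, with a change of -0.31 ± 0.15 (95% interval -0.66 to 0.05), but the test was not passed (limma, adjusted p = 0.622; 0.184 with the block). Col4a2 had values of 10.65, 10.37 and 10.73 in heterozygotes and 10.15, 10.64 and 10.51 in nulls, which overlapped between genotypes. Its change was -0.15 ± 0.19 (95% interval -0.59 to 0.29), so a rise of the size of Col1a2 lies outside the interval of either gene. Col4a1 and Col4a2 lie head to head on chromosome 8, and their RefSeq promoter windows share 78 bases.

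Col4a6, which pairs with Col4a5 in a second network found around smooth muscle and some epithelia, was higher in null. It had values of 7.12, 6.46 and 6.57 in heterozygotes and 7.46, 7.55 and 7.92 in nulls, without overlap, and its change of 0.93 ± 0.22 passed only with the block (limma, adjusted p = 0.123 without it and 0.0133 with it). Within pairs the difference was 0.80, 1.01 and 0.97 in pairs 1, 2 and 3. Col4a5 had values of 8.86, 7.80 and 8.28 in heterozygotes and 8.24, 8.48 and 9.16 in nulls, which overlapped, and a change of 0.31 ± 0.32 (95% interval -0.44 to 1.06). The intervals of the 2 genes overlap and the difference between them was not tested. Both are X-linked, and arrays differed in sex-linked genes: Xist, the RNA of the inactive X, was at 4.02 in null 1 and between 8.84 and 11.69 in the others, and the Y-linked Eif2s3y was at 3.92 in heterozygote 2 and between 7.90 and 8.95 in the others. Null 1 and heterozygote 2 form pair 2, where null minus heterozygote was -7.662 for Xist and 5.035 for Eif2s3y. Among the 13 members that passed with the block, the median difference was 1.96 in pair 2, against 1.26 in pair 1 and 1.15 in pair 3. The part of sex in the collagen values, X-linked or not, was not tested. Col4a3 and Col4a4, chains of the mature glomerular basement membrane, were dim, their means being below 4.81, the 33rd percentile over all probe sets, with changes of -0.08 ± 0.14 and -0.08 ± 0.15. Col4a3 had values of 3.78, 3.79 and 3.80 in heterozygotes and 3.78, 3.76 and 3.59 in nulls, and Col4a4 of 4.44, 4.27 and 4.22 in heterozygotes and 4.32, 4.27 and 4.10 in nulls, overlapping in both.

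Col8a2 had the largest change of the family on the probe sets used. It encodes a chain of type VIII, a short-chain collagen that forms hexagonal lattices, as in the cornea's Descemet membrane. Its values were 6.08, 4.98 and 4.92 in heterozygotes and 7.33, 6.68 and 8.09 in nulls, with heterozygote 1 and null 3 the highest of their groups and no overlap. The change was 2.04 ± 0.42 (limma, adjusted p = 0.0712; 0.00602 with the block). Its partner Col8a1 had values of 5.61, 5.66 and 6.34 in heterozygotes and 5.72, 6.02 and 5.80 in nulls and a change of -0.02 ± 0.23 on the probe set used, while its other probe sets gave 0.56 ± 0.32 and 0.74 ± 0.48, none passing. Col10a1, the collagen of hypertrophic cartilage, was dim, with a change of 0.04 ± 0.21.

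The main type VI chains, which assemble as a unit of Col6a1, Col6a2 and Col6a3 products, were all higher in null with no overlap. Col6a1 had values of 7.90, 6.92 and 7.67 in heterozygotes and 9.18, 8.53 and 9.48 in nulls, a change of 1.57 ± 0.32 (limma, adjusted p = 0.0696; 0.0379 with the block). Col6a2, its neighbour on chromosome 10, had values of 7.77, 7.01 and 7.26 in heterozygotes and 8.50, 8.42 and 9.39 in nulls, a change of 1.42 ± 0.30 (limma, adjusted p = 0.0840; 0.00874 with the block). A second Col6a2 probe set had a change of 1.69 ± 0.24 and was called in the test of single probe sets (limma, adjusted p = 0.0295). Col6a3 had values of 4.98, 3.45 and 4.59 in heterozygotes and 5.74, 5.85 and 7.35 in nulls, so that null 3 stood more than a log2 unit above the next array. Its change was 1.97 ± 0.51 (limma, adjusted p = 0.149; 0.0149 with the block), and its heterozygote mean of 4.34 was in the dim range, where differences are compressed. The minor chains Col6a4 and Col6a5 were dim. Col6a4 had values of 3.89, 4.45 and 4.32 in heterozygotes and 4.45, 4.64 and 4.76 in nulls and a change of 0.40 ± 0.19. Its other probe set had 0.03 ± 0.19, and its groups overlapped. Col6a5 had values of 2.48, 2.73 and 2.86 in heterozygotes and 2.84, 2.70 and 2.61 in nulls and a change of 0.03 ± 0.17.

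Among FACIT collagens, types XII and XIV, which coat type I fibrils, were higher. Col12a1 had values of 6.07, 5.62 and 5.59 in heterozygotes and 7.62, 7.16 and 6.99 in nulls and rose by 1.50 ± 0.22, 2.82-fold (limma, adjusted p = 0.0205; 0.0239 with the block). Null arrays were all above heterozygotes, and its other 3 probe sets had changes of 0.40 ± 0.18, 0.84 ± 0.33 and 1.67 ± 0.44. Omitting any one of heterozygotes 2 and 3 and nulls 1 and 2 ended its call (limma, adjusted p up to 0.0969). Col14a1 had values of 6.28, 5.77 and 5.26 in heterozygotes and 6.56, 6.21 and 7.01 in nulls, where heterozygote 1 lay above null 2, so the groups overlapped. Its change was 0.83 ± 0.30 (limma, adjusted p = 0.371; 0.0189 with the block), with differences of 0.74, 0.79 and 0.96 in pairs 1, 2 and 3. Type IX, which coats type II fibrils, did not pass for any chain. Col9a1, the brightest FACIT gene, had values of 9.92, 9.95 and 10.09 in heterozygotes and 10.14, 10.14 and 10.41 in nulls and a change of 0.25 ± 0.16. Col9a3 had values of 6.66, 6.96 and 6.41 in heterozygotes and 6.67, 6.74 and 6.62 in nulls and a change of 0.00 ± 0.18, and Col9a2 had 0.18 ± 0.18. Col22a1, found at tissue junctions such as those of muscle and tendon, had 0.71 ± 0.40, and Col16a1, Col19a1 and Col20a1 had 0.32 ± 0.18, 0.12 ± 0.15 and -0.25 ± 0.16.

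Of the transmembrane collagens, Col25a1 was higher in null. It encodes a membrane collagen of neurons and muscle that is needed for muscle innervation. Its values were 7.65, 6.52 and 6.43 in heterozygotes and 7.91, 8.05 and 9.22 in nulls, with both arrays of pair 1 highest in their groups and null 1 only slightly above heterozygote 1. The change of 1.53 ± 0.43 did not pass without the block (limma, adjusted p = 0.189) and passed with it (0.00602). The pair differences were 1.57, 1.39 and 1.63 in pairs 1, 2 and 3. Col13a1, of the neuromuscular junction, had 0.03 ± 0.14, Col17a1, of hemidesmosomes, -0.37 ± 0.21, and Col23a1 0.53 ± 0.33. The other Col23a1 probe sets, almost as bright, had 1.07 ± 0.31 and 0.76 ± 0.20. Null arrays were all higher on both, but neither was called in the test of single probe sets (limma, adjusted p = 0.305 and 0.236).

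Basement membrane collagens outside type IV did not pass in either fit. Col18a1, the source of endostatin, had values of 10.98, 10.36 and 10.76 in heterozygotes and 10.93, 11.32 and 11.08 in nulls and a change of 0.41 ± 0.20 (95% interval -0.06 to 0.88). Its relative Col15a1 had -0.28 ± 0.21. Col7a1, of the fibrils that anchor epidermis to dermis, had 0.08 ± 0.20. Col26a1, among the brightest members, had values of 10.83, 10.67 and 10.85 in heterozygotes and 11.22, 11.02 and 10.76 in nulls and a change of 0.22 ± 0.17. In all, 29 members passed in neither fit, with changes from -0.37 to 0.71 on the probe sets used, and 11 of the 42 had means below that 33rd percentile.

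Probe sets of the same gene mostly gave the same sign. Of 27 members with several probe sets, 7 had probe sets of opposite sign (Col4a3, Col4a4, Col8a1, Col9a3, Col19a1, Col20a1 and Col26a1), and none of these passed in either fit. All 10 genes with several probe sets among the 13 had only positive ones, and Col6a1, Col6a3 and Col8a2 rest on 1 probe set each. With every probe set tested on its own, 4 of 82 collagen probe sets rose, those of Col1a1, Col1a2, Col6a2 and Col12a1, against 0.687% of all probe sets called in either direction.

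Genes that help make, crosslink, bind or degrade collagen were taken from 4 lists of 61 measured genes. The biosynthesis list holds the prolyl and lysyl hydroxylases, chaperones and export factors of the endoplasmic reticulum, along with Creb3l1. Among 23 such genes measured, 1 rose and 0 fell (0.808% and 0.583% of all genes did), with a median change of 0.07. The gene that rose was Creb3l1, a transcription factor released by cleavage in the secretory pathway that drives type I collagen genes in bone. Its values were 6.89, 6.89 and 7.24 in heterozygotes and 8.38, 9.004 and 8.23 in nulls, a change of 1.54 ± 0.23 (limma, adjusted p = 0.0220; 0.00693 with the block), and the call did not survive omission of either of heterozygotes 2 and 3 or nulls 1 and 2 (up to 0.0914). P3h1, a prolyl 3-hydroxylase, had 0.60 ± 0.21 and Mia2, an export factor, -0.66 ± 0.23, neither passing in either fit. P4ha3, a prolyl 4-hydroxylase subunit, passed only with the block, at 0.59 ± 0.30 (limma, adjusted p = 0.0445). Serpinh1, the collagen chaperone HSP47, had means of 11.65 ± 0.15 in heterozygotes and 11.82 ± 0.15 in nulls (SD, n = 3 each) and a change of 0.17 ± 0.16 (95% interval -0.21 to 0.54).

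The cleavage and crosslinking list had 15 measured genes, of which 4 rose and 0 fell, against 0.808% and 0.583% of all genes, with a median change of 0.45. Pcolce, which enhances removal of the procollagen C-propeptide, had values of 8.82, 7.50 and 8.43 in heterozygotes and 10.01, 10.15 and 10.55 in nulls and rose by 1.99 ± 0.33, 3.96-fold (limma, adjusted p = 0.0316; 0.00911 with the block). Null arrays were all more than a log2 unit above the heterozygotes. Loxl1, a lysyl oxidase that crosslinks matrix fibres, had values of 8.37, 7.38 and 7.89 in heterozygotes and 9.05, 9.67 and 9.50 in nulls and rose by 1.53 ± 0.28 (limma, adjusted p = 0.0458; 0.0106 with the block). Lum and Dcn, small proteoglycans that bind fibrils and set their width, rose as well. Lum had values of 5.40, 3.90 and 4.66 in heterozygotes and 7.61, 6.81 and 7.59 in nulls, a change of 2.69 ± 0.39 (limma, adjusted p = 0.0190; 0.0152 with the block). Dcn had values of 7.14, 7.13 and 7.27 in heterozygotes and 9.23, 8.41 and 8.59 in nulls, a change of 1.56 ± 0.23 (limma, adjusted p = 0.0190; 0.0173 with the block). For both genes every null array lay above every heterozygote. Bmp1, the C-proteinase itself, was at 0.35 ± 0.16, and Sparc, a collagen-binding protein, at 0.34 ± 0.17, neither passing. Loxl3 passed only with the block (0.76 ± 0.16, limma, adjusted p = 0.0250), and Lox had 0.99 ± 0.27. With 1 array left out, each of the 4 calls was lost at least once. Dcn was lost without heterozygote 2 or 3 (limma, adjusted p up to 0.0823) and Lum without heterozygote 3, null 1 or null 3 (up to 0.0855). Pcolce was lost in all such fits but those without heterozygote 1 or 2 (limma, adjusted p up to 0.105), and Loxl1 in all but that without heterozygote 1 (up to 0.162).

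Among 9 measured collagen receptors, 1 rose and 0 fell, against the same 0.808% and 0.583%, with a median change of 0.11. Ddr2, a receptor tyrosine kinase for fibrillar collagen found on mesenchymal cells, had values of 5.74, 5.70 and 5.95 in heterozygotes and 7.96, 7.45 and 6.74 in nulls and rose by 1.58 ± 0.29 (limma, adjusted p = 0.0469; 0.0294 with the block). It was lost in all fits with 1 array left out but that without null 3 (limma, adjusted p up to 0.159). Itga1, the integrin chain for type I and IV collagen, had values of 6.97, 6.39 and 6.32 in heterozygotes and 5.06, 5.41 and 5.92 in nulls and a change of -1.10 ± 0.27 that passed only with the block (limma, adjusted p = 0.125 and 0.0126). Ddr1, the receptor of epithelia, was at 0.16 ± 0.18, the shared chain Itgb1 at 0.02 ± 0.16, and Mrc2, which takes up collagen fragments, at 0.27 ± 0.18. Of 14 turnover genes 0 rose and 0 fell, against 0.808% and 0.583% of all genes, with a median change of 0.22. At an unadjusted p under 0.05 in limma there were 4, where 5.07% of all genes were higher and 4.65% lower. Mmp2, a gelatinase, had 0.79 ± 0.22 and Fap, a protease of activated fibroblasts, 1.25 ± 0.45. Both passed with the block (limma, adjusted p = 0.0380 and 0.0456), where 2.65% of all genes rose. The inhibitors Timp1 and Timp3 had 0.71 ± 0.21 and 0.56 ± 0.19.

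**Figure D3:**
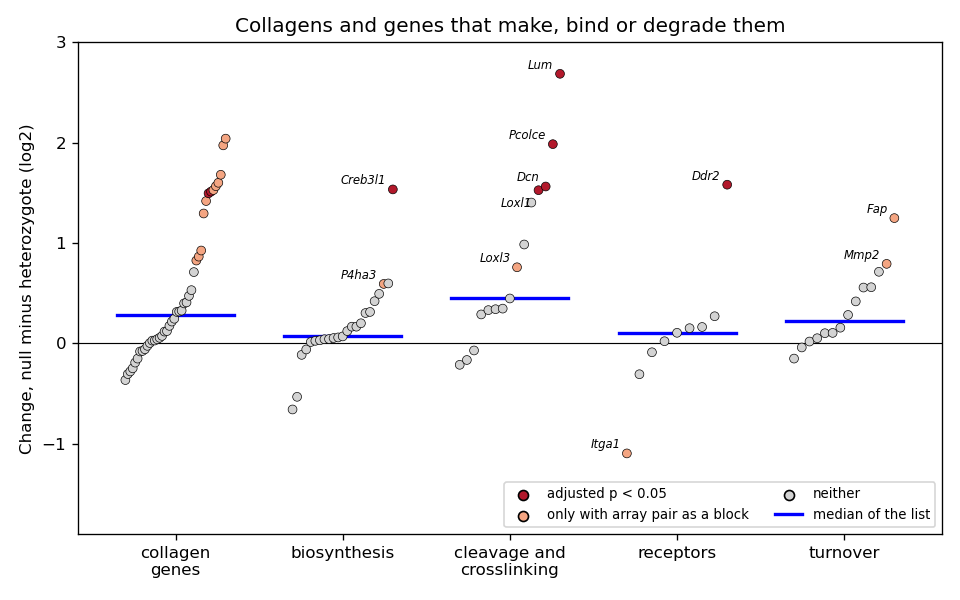
Change of each gene, null minus heterozygote (log2, y axis), for the 42 collagens and 4 lists of genes that make, crosslink, bind or degrade collagen. Points are genes sorted within a list, dark red with adjusted p under 0.05, light red only with the array pair as a block, and blue lines are medians; without the block 2 of 42 collagens and 4 of 15 cleavage and crosslinking genes rose, and with it 13 and 5, where 0.808% and 2.65% of all genes rose.

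Some markers of other cell types moved with the collagens, and in sorted bulk cells more cells of a type and more RNA per cell cannot be told apart. Mean log2 levels of 15 stromal and mesenchymal genes ran from 7.50 to 7.88 in heterozygotes and from 8.42 to 8.62 in nulls. Of the 15, 3 rose, Pdgfrb, Tbx18 and Twist2 (1.90 ± 0.19, 2.05 ± 0.21 and 1.76 ± 0.22), and 0 fell, while Foxd1 had 0.55 ± 0.19. Of all genes, 0.808% rose and 0.583% fell. Changes were positive for 12 of the 15 and negative for 3. Meox1 (-0.42 ± 0.15) lay lower in every null array, as did 7.16% of all genes, and Cdh11 had -0.34 ± 0.18. Smooth muscle and perivascular genes had mean levels of 6.58 to 7.28 and 7.31 to 7.54, with Rgs5 (1.56 ± 0.29) the 1 of 8 that rose, a call kept only without heterozygote 1. Des (-0.64 ± 0.20) was the 1 of 8 with a negative change and lay lower in every null array. Myh11 had 0.11 ± 0.16. Macrophage genes ran from 5.17 to 6.26 and from 6.17 to 7.39, with 0 of 12 passing and Csf1r at 1.43 ± 0.62. With the block 4 of the 12 rose, Mrc1 (2.39 ± 0.57), Tyrobp (1.49 ± 0.39), Laptm5 (1.28 ± 0.33) and C1qb (1.75 ± 0.78), where 2.65% of all genes rose. Skeletal muscle genes ran from 4.86 to 5.16 and from 5.19 to 5.34, with 0 of 8 passing and the lineage factors Myod1 and Myog at -0.11 ± 0.16 and -0.12 ± 0.20. With the block 2 of the 8 rose, Actc1 (1.11 ± 0.24) and Tnnt1 (1.06 ± 0.23), and null arrays of these and of Tnni1 (0.66 ± 0.19) all lay above the heterozygotes, as for 6.49% of all genes. The block gave 6 of 15 stromal and 2 of 8 smooth muscle genes as risen. Among these, Twist1 (2.15 ± 0.49), Pdgfra (1.69 ± 0.47), Thy1 (0.98 ± 0.34) and Tagln (0.997 ± 0.21) passed only with the block.

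Cartilage and sclerotome genes had mean levels of 5.52 to 5.64 in heterozygotes and 5.58 to 5.82 in nulls, with 0 of 12 passing and Sox9 at 0.12 ± 0.23. Pax9, a sclerotome factor, was higher in every null array (1.03 ± 0.32) and was the 1 of 12 that rose with the block (limma, adjusted p = 0.0163). Acan was also higher in every null array (0.58 ± 0.25). Of all genes, 2.65% rose with the block and 6.49% were higher in every null array. Endothelial genes overlapped, at 5.15 to 5.53 and 5.20 to 5.57, with 0 of 10 passing, as did epithelial genes, at 9.87 to 10.40 and 9.68 to 10.16, with 0 of 8 passing and Epcam at -0.06 ± 0.16. Of 6 neural and neural crest genes, Elavl4 fell (-1.54 ± 0.29), where 0.583% of all genes fell, and mean levels were 6.56 to 6.67 and 6.10 to 6.62. Kidney lineage genes, which mark the tissue named in the labels, were present in both genotypes, at 9.77 to 10.15 and 8.79 to 9.29, with 5 of 12 falling and Cited1 rising. Of all genes, 0.583% fell and 0.808% rose. The part of these cell types in the collagen changes was not tested, and the array values give no level of exactly 0 for any marker.

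**Figure D4:**
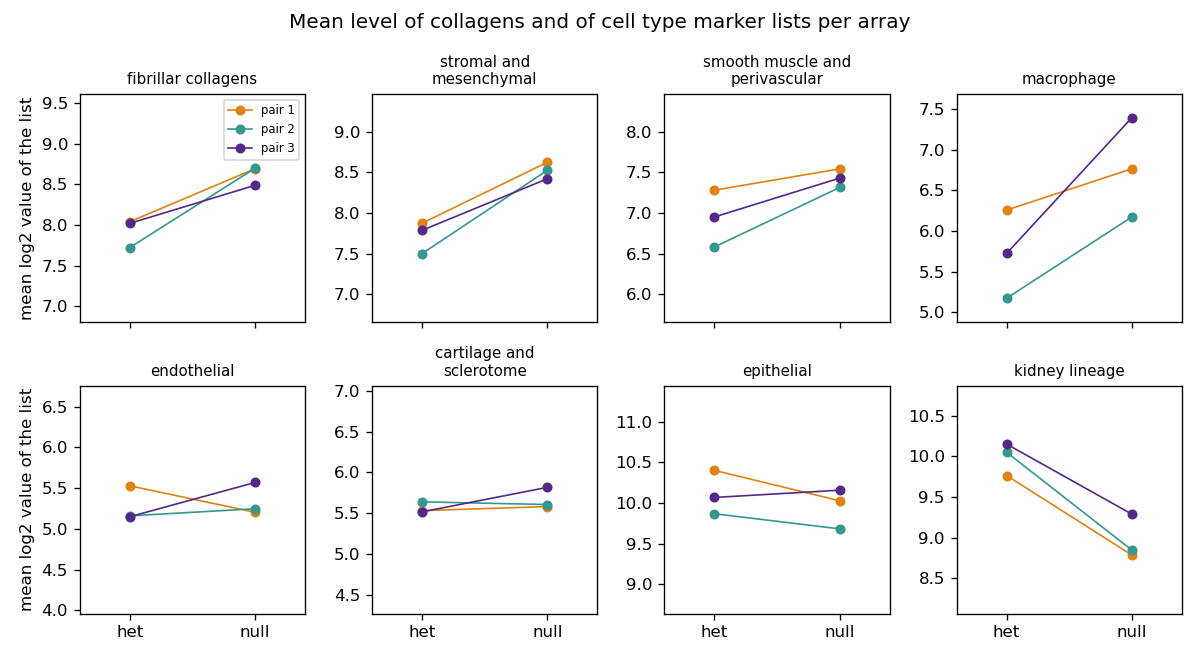
Mean log2 value per array (y axis, 2.8 log2 units in every panel) of the 11 fibrillar collagens and of 7 cell type marker lists. Points are arrays and lines join the arrays of a pair. Fibrillar collagens and the stromal list are higher in every null array than in any heterozygote, and the kidney lineage list is lower. The smooth muscle list is higher by a narrow margin (highest heterozygote 7.28, lowest null 7.31). The macrophage, cartilage, endothelial and epithelial lists overlap.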

How the data were processed

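Per the labels' protocols, 10 ng of total RNA per sample was amplified to cDNA (NuGEN, WT-Pico Ovation) and, after labelling, put on 1 array. The deposited values are log2 values per probe set. The submitters' processing notes name affy, RMA and limma, without the settings used. RMA gives all arrays nearly the same distribution, so a difference in total RNA per cell is hidden, and it pulls changes of dim probe sets towards 0. Array medians lay between 6.12 and 6.24, and the number of arrays limits the precision.

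Of a gene's probe sets with 1 symbol in the platform annotation, the one brightest on average was kept, with no filter on dim values. The test was limma 3.58.1 (R 4.3.3; lmFit, eBayes), two-sided and without covariates, adjusted by Benjamini-Hochberg over 18194 genes at a threshold of 0.05. Errors of changes are standard errors from the fit, and those of means are SDs. Array pairs came from 18 hybridization control probe sets without use of genotype. Over 15 possible matchings, the summed distance was 1.97 for the closest and 5.06 for the one after it. The alternatives were other priors, weights, filters, centrings, probe set rules and thresholds, the pair as a block, and omission of each array or pair. Fits were tested on simulated data with independent noise and no pair effect. Changes of 1 log2 unit were called for 40% of 50 genes without the block and 2% with it, and changes of 2 units for 92% and 70%. How the block fit acts where arrays shift by pair was not tested by this.

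The members, gene lists, tests and alternatives were chosen with earlier results of these data known. Array values are given for collagens that passed with or without the pair block, for their chain partners and for the 3 brightest of each class. Pathway genes were named if they passed or had the 3 smallest p of their list, and some others with them. Of the cell type lists, some genes that passed or stood first were named. Some of those that passed only with the block were added after their values were seen. The targeted gene is not reported here, and genotype labels were not checked against it.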

Additional observations from a re-analysis of the deposited data

How the results depend on the processing

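Numbers of calls moved with the model of the spread, the filter, the probe set rule and the arrays used. The 13 collagens that pass with the pair block and the 6 genes of the pathway lists that passed had positive changes in all 16 alternative fits. Their sign could hardly turn, as they were chosen by calls in these data and some of the fits return the same change. The labels give no shared replicate numbers, so the paired fit uses the array pairs found from the hybridization controls. Collagen, all-gene and pathway-list calls numbered 2, 253 and 6 as reported. The array pair block gave 13, 824 and 11, array weights 11, 551 and 11, and a linear model without moderation 0, 3 and 0. With 1 array left out, collagen calls ranged from 0 (without null 1) to 7 (without heterozygote 1), all-gene calls from 84 to 318 and pathway calls from 0 to 6. Without pair 1, 2 or 3, collagen calls were 5, 0 and 0, pathway calls 2, 0 and 0, and all-gene calls 251, 1 and 2. An intensity-dependent prior gave 7 collagens, the filter at the 33rd percentile 5, the mean over probe sets 7, single probe sets 4 and a threshold of 0.10 gave 8 collagens and 405 genes. The causes were not tested. All collagen calls in these fits were rises.

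Among single named genes, 350 of the alternative values kept direction and side of the threshold, 42 newly passed, 12 no longer passed and 23 changed sign, the latter for genes with reported changes between -0.08 and 0.06. Col4a3 was at 0.006 with the mean over probe sets. Col4a4 was at 0.061 with the mean over probe sets, 0.002 with array weights and 0.050 without pair 1. Col5a3 was at -0.083 without pair 3 and -0.046 to 0.15 with 1 array left out. Col6a5 was at -0.001 with median centring, -0.016 with array weights, -0.023 without pair 1, -0.011 without pair 2 and -0.076 to 0.11 with 1 array left out. Col8a1 was at 0.43 with the mean over probe sets, 0.12 without pair 3 and -0.16 to 0.21 with 1 array left out. Col9a3 was at -0.026 with median centring, -0.16 without pair 3 and -0.13 to 0.15 with 1 array left out.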
